A study of Mus musculus with 8 samples.

Results

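Collagens form the fibres and sheets of the extracellular matrix, and the 38 genes described here are 22 collagen chains and 16 genes whose products fold, hydroxylate, trim, cross-link or bind them. They were chosen by name, as a list of collagens and collagen-processing genes. The rule uses no measured value, but the list was drawn up with earlier results of these data known. In each sample a gene took the FPKM of the row whose mm9 locus overlapped the annotated gene best, where the shared length was 0.5 or more of the joint length. FPKM is a level per length of transcript and per sequencing depth. Of the 38 genes, 37 had such a row in all 8 samples, and 31 were at or above 1 FPKM in 2 or more libraries and were tested. Over the whole study 20197 genes had a row in all samples and 10284 of them were tested.

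RNA-Seq of NIH3T3 cells, a line of mouse embryonic fibroblasts that responds to Hedgehog ligand, was used to ask how estrogen related receptor β (Esrrb) and Hedgehog signaling act on gene expression. All cells carried a stably transfected pcDNA3.1 (Zeo+) vector and had been selected with zeocin. Control cells (NIH3T3-pc3.1) had the empty vector, and received medium from HEK293 cells that lack a Sonic Hedgehog transgene. Hh-CM cells were the same line with 1% of medium from HEK293 cells that secrete the Sonic Hedgehog N-terminus. Cells labelled Esrrb (NIH3T3-Esrrb) had the vector with Esrrb and received the medium without ligand, and Esrrb+Hh-CM cells had this vector and the ligand. All 4 groups were kept for 48 h in phenol-red free medium with 5% newborn calf serum, and each had 2 samples. The established cells of 2 independent transfections were pooled. The methods call the 2 samples of a condition biological replicates, but do not say whether they came from separate transfections. The p-values measure the spread between these samples, and 2 samples against 2 cannot give an exact permutation p below 0.33.

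A collagen chain folds with partner chains into a triple helix in the endoplasmic reticulum. Prolyl and lysyl hydroxylases modify the chains there, and the chaperone Serpinh1 (HSP47) binds the helix. After secretion proteinases trim the ends of fibrillar procollagens, and lysyl oxidases join the molecules by covalent cross-links. Fibroblasts are the main source of the fibrillar types I, III and V and of the beaded filaments of type VI. Type IV collagen forms the network of basement membranes, and fibril-associated collagens sit on the surface of fibrils.

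The results below turn on a divergent gene pair and on the fibrillar Col11a1, so the start regions of these 3 genes are shown. Col11a1 rose with the ligand and was lower in libraries labelled Esrrb. Col5a3, another fibrillar chain, fell with the ligand and was higher in those libraries. The start region of Col5a3, not shown, holds no match to the letters searched below. Windows of 250 bases before to 50 bases after the start site were taken from RefSeq (GRCm38.p6), in which 28 of the 38 genes had an entry. Bmp1, Col12a1, Col14a1, Col1a1, Col5a2, Lox, Loxl1, Loxl2, Loxl3 and Plod2 had none. Col4a1 (chr8:11312777-11313076, minus strand) and Col4a2 (chr8:11312555-11312854, plus strand) are printed 5′ to 3′, each on its own strand. The 78 bases that both windows share are in capitals.
Col4a1: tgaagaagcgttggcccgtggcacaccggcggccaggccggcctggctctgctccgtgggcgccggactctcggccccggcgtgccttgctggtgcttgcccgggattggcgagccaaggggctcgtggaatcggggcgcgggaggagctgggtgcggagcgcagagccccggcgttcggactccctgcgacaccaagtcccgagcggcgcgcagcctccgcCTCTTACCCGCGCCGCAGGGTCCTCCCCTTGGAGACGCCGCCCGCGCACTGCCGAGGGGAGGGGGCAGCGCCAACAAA
Col4a2: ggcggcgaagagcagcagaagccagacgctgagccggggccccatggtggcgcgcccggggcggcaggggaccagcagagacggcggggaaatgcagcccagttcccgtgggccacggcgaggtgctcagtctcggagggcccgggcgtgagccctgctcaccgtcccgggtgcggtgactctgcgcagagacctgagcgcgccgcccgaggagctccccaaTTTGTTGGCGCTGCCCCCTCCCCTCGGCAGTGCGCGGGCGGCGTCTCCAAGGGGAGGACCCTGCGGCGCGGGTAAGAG
The window of Col11a1 (chr3:114030290-114030589, plus strand) has in capitals the 1 match to AAGGTCA, letters bound by estrogen related receptors, which lies on the opposite strand 71 bases before the start site.
Col11a1: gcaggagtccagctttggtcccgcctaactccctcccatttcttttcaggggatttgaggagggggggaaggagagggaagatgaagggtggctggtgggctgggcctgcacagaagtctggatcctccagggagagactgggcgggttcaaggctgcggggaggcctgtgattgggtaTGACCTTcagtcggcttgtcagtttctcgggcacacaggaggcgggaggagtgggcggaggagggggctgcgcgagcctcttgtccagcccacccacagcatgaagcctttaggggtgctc
AAGGTCA was searched on both strands. It was found in the windows of Col11a1 and Col7a1 (140 bases before the start, opposite strand), and in 4.72% of all 32851 windows. The Gli letters GACCACCCA, also searched on both strands, were in none of the 30 windows of the 28 genes and in 0.253% of all windows. A match of letters is a description of the window and not evidence of binding.

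The libraries held the markers of fibroblasts. All 7 fibroblast markers were tested, with a summed level of 5012 to 6293 FPKM per sample, and Vim, Dcn and Fn1 were between 279 and 3228 FPKM. The 5 epithelial markers summed to at most 0.0916 FPKM in any sample, and Epcam, Krt18, Kdr, Myod1, Myog, Adipoq and Lep were listed at 0 throughout. The endothelial markers summed to at most 1.67 FPKM, of which Tek was 0.0289 to 0.108 without the ligand and 1.06 to 1.51 with it, while Kdr was listed at 0. The part of such cells in the rise of type IV chains given below was not tested. The macrophage and blood markers summed to 1.14 to 2.92 FPKM, the myogenic markers to at most 0.324 and the adipocyte markers to at most 0.313. Of the osteoblast and chondrocyte markers Sox9 alone was tested (25.3 to 29.7 FPKM). Gli1, a target of Hedgehog signaling, was 0.0217 and 0.0308 FPKM in Control, 26.8 and 28.1 in Hh-CM, 0.106 and 0.0372 in Esrrb and 34.5 and 34.8 in Esrrb+Hh-CM libraries. The transgene was not seen at its locus: Esrrb was listed at 0 in both Control libraries and in all 4 libraries labelled Esrrb or Esrrb+Hh-CM, and at 0.0281 and 0.0203 FPKM in Hh-CM. The label of the receptor therefore could not be checked from its gene in these libraries, and every difference between lines given here is one between libraries so labelled. The paper reports Esrrb protein in NIH3T3-Esrrb cells by Western blot and describes NIH3T3-pc3.1 cells as without it. Estimated depth, with Control replicate 1 set to 1, was lowest at 0.743 (Esrrb+Hh-CM replicate 2) and highest at 1.54 (Hh-CM replicate 2).

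Most tested members were expressed well above the typical gene. The 31 tested members had a median level of 67.7 FPKM over all samples, against 12.4 for all genes tested. Col1a2, the α2 chain of type I collagen, was highest, from 1575 to 1818 FPKM per sample. It was followed by Sparc, a secreted collagen-binding glycoprotein (1064 to 1402), Lox, the founding lysyl oxidase (713 to 1450), and Col1a1 (748 to 1026). Col1a2 was above the other 3 in every library. Sparc was above Col1a1 in every library, and the range of Lox overlapped those of both. At the lower end Pcolce2 was listed at 0 in every library, and Col7a1, Col8a2, Col14a1, Col15a1 and Loxl2 stayed too low to be tested. Col14a1, a fibril-associated chain, was 0.01 and 0.0170 FPKM in Control, 0.0235 and 0.0206 in Esrrb, 0.144 and 0.149 in Hh-CM and 0.401 and 1.33 in Esrrb+Hh-CM libraries. In a fit without an FPKM limit it passed as higher in Esrrb+Hh-CM than in Control or Esrrb libraries (limma adjusted p below 0.05). Col7a1, the chain of anchoring fibrils, reached 1.06 FPKM in Esrrb+Hh-CM replicate 1 alone. Pcolce, which enhances the trimming of procollagen, lay between 371 and 469 FPKM in 7 libraries, but its row in Esrrb+Hh-CM replicate 1 (460 FPKM) ran beyond the gene, so it was not tested.

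Summed over the 22 chains, collagen FPKM was 4055 and 4159 in Control, 4550 and 5062 in Hh-CM, 5066 and 4997 in Esrrb, and 5383 and 5566 in Esrrb+Hh-CM libraries. Types I and III made up most of it. Their share was 73.7% and 73.5% in Control and 73.9% and 74.3% in libraries labelled Esrrb, and 68.8% and 68.9% in Hh-CM and 67.5% and 67.9% in Esrrb+Hh-CM libraries. The share of the type IV chains was 3.52% and 3.42% in Control, 2.68% and 2.65% in Esrrb, 6.45% and 6.59% in Hh-CM and 5.93% and 5.69% in Esrrb+Hh-CM libraries. In both lines the ligand thus went with a smaller share of types I and III and a larger share of type IV, and the groups with and without it did not overlap in either share. These shares are descriptions without a test.

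**Figure D1:**
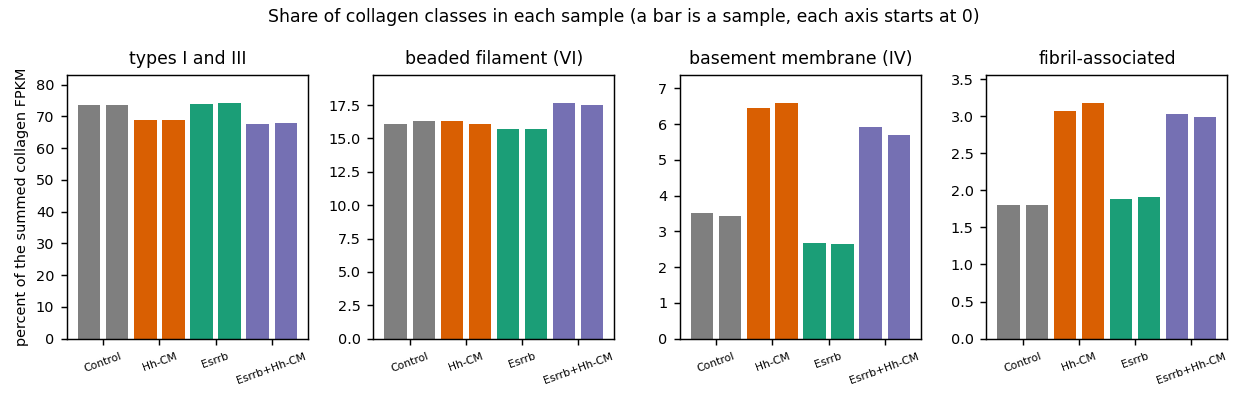
Share of 4 classes of collagen chains in the summed FPKM of the 22 chains, in percent, with 1 bar per sample and the 2 samples of a group side by side. The bars for type IV and for fibril-associated chains are taller in both groups with Hh-CM (5.69% to 6.59% and 2.99% to 3.18%) than in both groups without it (2.65% to 3.52% and 1.80% to 1.92%).

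In the empty-vector line, Hh-CM up-regulated the basement membrane chains Col4a1 and Col4a2, the fibril-associated Col16a1 and the fibrillar Col11a1, and lowered the cross-linking oxidases Lox and Loxl1 and the chaperone Serpinh1. Of the 31 members 9 rose and 7 fell at an adjusted p below 0.05 (limma, Benjamini-Hochberg over all genes tested), where 10.5% of all genes rose and 7.53% fell. The median log2 change was 0.02 over the members and 0.04 over all genes. With a change of at least 1 on the log2 scale as well, 3 members passed, all of them higher, against 2.76% of all genes. After rescaling all samples to a common median, all genes split into 940 higher and 1005 lower, from 1080 and 774, while the members stayed at 9 and 7.

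Col4a1 was 48.3 and 49.7 FPKM in Control and 151 and 173 in Hh-CM libraries, and 40.9 and 39.1 in Esrrb and 159.5 and 158.9 in Esrrb+Hh-CM libraries. Col4a2 was 36.2 and 35.4 FPKM in Control, 90.0 and 103 in Hh-CM, 34.1 and 33.0 in Esrrb, and 104 and 106 in Esrrb+Hh-CM libraries. Every library with the ligand was above every library without it, for both genes. Fold changes here are on the log2(FPKM + 0.1) scale. Col4a1 rose 3.29-fold in the empty-vector line (log2 1.72, SE 0.07, limma adjusted p = 8.82e-05) and 3.97-fold in the line labelled Esrrb (log2 1.99, SE 0.07, adjusted p = 3.93e-05). Col4a2 rose 2.69-fold (log2 1.43, SE 0.07, adjusted p = 0.000152) and 3.13-fold (log2 1.64, SE 0.07, adjusted p = 6.02e-05). In mm9 both genes lie on chromosome 8, Col4a1 from 11198423 to 11312826 on the minus strand and Col4a2 from 11312805 to 11449287 on the plus strand, so they overlap by 22 bases at their starts. The library kit kept the strand, but no source says whether the counting used it. The other type IV pair, Col4a6 and Col4a5 on chromosome X, also starts head to head, 1309 bases apart. Neither gene passed the test in the empty-vector line. Col4a6 stayed between 15.6 and 17.4 FPKM there, and between 15.6 and 19.5 over all libraries. Col4a5 was 41.1 and 41.3 FPKM in Control and 37.0 and 40.3 in Hh-CM libraries (adjusted p = 0.257). In libraries labelled Esrrb, Col4a5 fell from 44.7 and 43.6 to 36.0 and 35.8 FPKM with the ligand (log2 -0.30, SE 0.05, adjusted p = 0.00799).

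Col16a1, a fibril-associated chain, was 69.6 and 72.1 FPKM in Control and 137 and 158.5 in Hh-CM libraries. It was 78.3 and 80.5 in Esrrb and 147 and 150.2 in Esrrb+Hh-CM libraries, so here too the ligand divided the samples without overlap. The rise was 2.08-fold in the empty-vector line (log2 1.06, SE 0.07, adjusted p = 0.000525) and 1.87-fold in the line labelled Esrrb (log2 0.90, SE 0.07, adjusted p = 0.000526). In the empty-vector line the log2 change was 0.95 without Hh-CM replicate 2, below the limit of 1.

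Of the 4 tested lysyl oxidases, Lox and Loxl1 fell with the ligand in both lines and Loxl3 and Loxl4 passed in neither. Over all genes, 7.53% fell in the empty-vector line and 9.51% in the line labelled Esrrb. Lox was 1342 and 1394 FPKM in Control and 805 and 814 in Hh-CM libraries, and 1435 and 1450 in Esrrb and 744 and 713 in Esrrb+Hh-CM libraries. It fell by 0.76 on the log2 scale (SE 0.04, adjusted p = 0.000161) in the empty-vector line and by 0.99 (SE 0.04, adjusted p = 5.24e-05) in the other. Loxl1, an oxidase best known for its role in elastic fibres, was 100.0 and 101 FPKM in Control, 63.2 and 67.3 in Hh-CM, 104 and 111 in Esrrb and 69.8 and 62.6 in Esrrb+Hh-CM libraries. Its log2 changes were -0.62 (SE 0.07, adjusted p = 0.00243) and -0.70 (SE 0.07, adjusted p = 0.00103). Both oxidases were lower in every library with the ligand than in any without it. Loxl4 was the only tested oxidase with positive estimates (log2 0.37 and 0.30).

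The lysyl hydroxylases, which prepare the residues that the oxidases act on, did not move as a group. Plod3 rose from 38.3 and 39.5 FPKM in Control to 55.9 and 60.9 in Hh-CM libraries, and from 49.6 and 48.2 in Esrrb to 94.8 and 91.5 in Esrrb+Hh-CM libraries. Its log2 changes were 0.58 (SE 0.05, adjusted p = 0.00138) and 0.93 (SE 0.05, adjusted p = 0.000162). Plod1 rose by less, with log2 changes of 0.33 (adjusted p = 0.0285) and 0.42 (adjusted p = 0.00876). Plod2, the form that acts on the ends of the collagen chain, fell in the empty-vector line from 15.1 and 14.8 to 11.9 and 12.2 FPKM (log2 -0.31, SE 0.05, adjusted p = 0.00812). In the line labelled Esrrb it did not pass (log2 -0.10, adjusted p = 0.187). The calls of Plod1 and Plod2 in the empty-vector line were lost in some fits that leave out a sample. That of Plod1 was also lost without an FPKM limit. The ratio of Plod3 to Plod2 FPKM was 2.53 and 2.66 in Control, 4.69 and 4.98 in Hh-CM, 4.56 and 4.35 in Esrrb and 9.12 and 9.07 in Esrrb+Hh-CM libraries. It was thus higher with either the ligand or the vector label and highest with both, a description without a test.

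Of the folding genes, Serpinh1 was 447 and 462 FPKM in Control, 323 and 335.5 in Hh-CM, 526 and 508 in Esrrb and 424 and 402 in Esrrb+Hh-CM libraries. It fell with the ligand by 0.47 on the log2 scale (SE 0.04, adjusted p = 0.00151) in the empty-vector line and by 0.32 (SE 0.04, adjusted p = 0.00366) in the other. Its row had different ends in different libraries, with a lowest overlap of 0.766 with the annotated gene. The rows of Col4a2, Col16a1, Lox and Plod3, among others, also varied, with lowest overlaps of 0.9998, 0.992, 0.982 and 0.989. The ends were the same in all libraries for 25 of the 38 members. P4ha1, the common catalytic subunit of prolyl 4-hydroxylase, fell by 0.21 and 0.17 on the log2 scale (adjusted p = 0.0228 and 0.0369). These calls held in 4 and in 1 of the 8 fits that leave out a sample, with adjusted p up to 0.112 and 0.130, and the second was also lost with the replicate block, with only the compared groups, without the variance trend and without an FPKM limit. Of the fibrillar chains, the minor chains Col5a2 and Col11a1 rose in both lines and Col5a3 fell in both. The major chains Col1a1, Col1a2 and Col3a1 passed the test in neither line, with 95% intervals within -0.21 and 0.37 on the log2 scale.

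In the line labelled Esrrb, 9 members rose and 9 fell with Hh-CM, where 13.9% of all genes rose and 9.51% fell. The median log2 change was -0.06 over the members and 0.04 over all genes. Col4a1 and Col4a2 passed both limits, against 4.81% of all genes. The 2 tests of the ligand share no sample, although they share 1 estimate of the spread. Members had a higher median level than all tested genes (67.7 against 12.4 FPKM). Their median log2 difference in size between replicates was 0.047 (all genes 0.079) in Control and 0.048 (0.085) in Esrrb. It was 0.075 (0.1) in Esrrb+Hh-CM and 0.113 (0.077) in Hh-CM libraries. The part of level and spread in the shares called, here and in the other comparisons, was not tested. Passed in both lines were 14 of the 31 members (45.2%), against 12.8% of all genes. All 14 had the same sign in both lines, as had 97.5% of the 1313 genes called in both. The 9 that rose in both were Col4a1, Col4a2, Col5a2, Col11a1, Col6a1, Col6a2, Col16a1, Plod1 and Plod3, and the 5 that fell were Col5a3, Lox, Loxl1, P4ha1 and Serpinh1. Of the 14, 9 were called in both lines whichever sample was left out: Col5a2, Col11a1, Col4a1, Col4a2, Col16a1, Lox, Loxl1, Plod3 and Serpinh1.

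**Figure D2:**
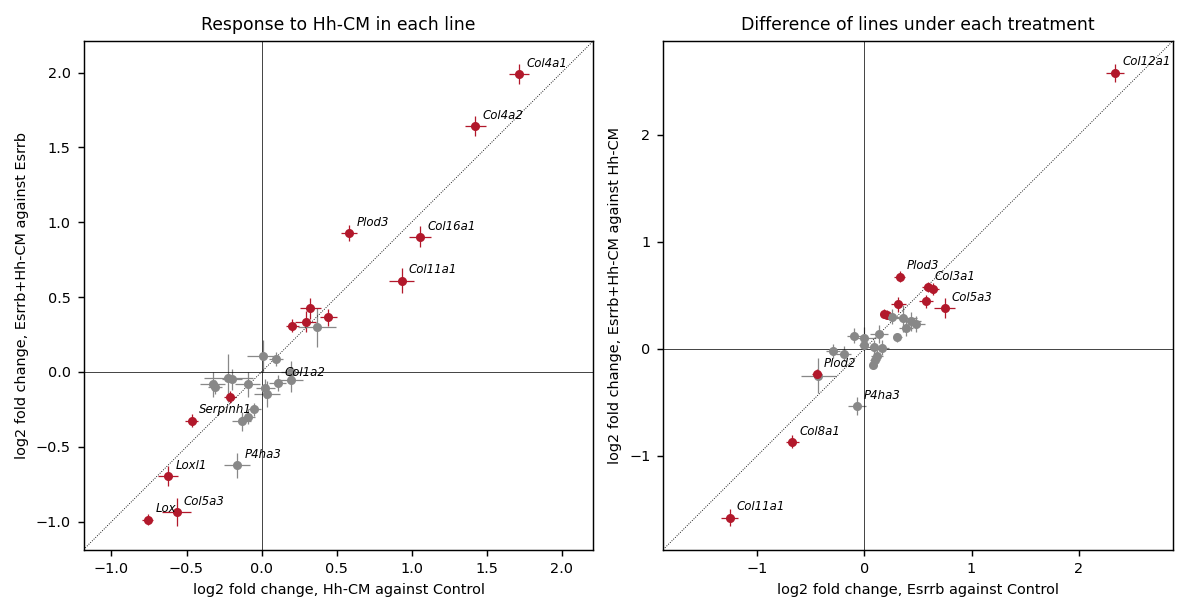
Log2 fold changes of the 31 tested members: left, the response to Hh-CM in the line labelled Esrrb against that in the empty-vector line; right, the difference of lines with Hh-CM against that without. Bars are SE, red points passed the test on both axes, and the dotted line marks equal values. Col4a1 and Col4a2 lie at the upper end and Lox at the lower end of the left panel, and Col12a1 and Col11a1 at the ends of the right panel.

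Whether the response differed between lines was tested as the interaction. No member passed (limma, 0 of 31 at an adjusted p below 0.05), while 0.758% of all genes had a higher and 0.593% a lower response in the line labelled Esrrb. At an unadjusted p below 0.05 there were 9 of the 31 members and 1849 of all 10284 genes. The smallest adjusted p was 0.0881, for Plod3, with a log2 difference of responses of 0.35 (95% interval 0.16 to 0.53). The difference was -0.23 for Lox (-0.36 to -0.10, adjusted p = 0.0987) and -0.46 for P4ha3 (-0.75 to -0.17, adjusted p = 0.129). P4ha3, another catalytic subunit of prolyl 4-hydroxylase, was 15.7 and 16.4 FPKM in Control, 13.9 and 14.8 in Hh-CM, 15.2 and 15.3 in Esrrb and 9.12 and 10.7 in Esrrb+Hh-CM libraries. Both Esrrb+Hh-CM libraries lay below the other 6. Col1a2 was higher with the ligand in the empty-vector line and lower in the other in every library, but the difference of responses was -0.18 (95% interval -0.37 to 0.01, adjusted p = 0.302). For Col16a1 the interval of the difference ran from -0.40 to 0.09, so a weaker response in the line labelled Esrrb could not be told from an equal one.

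Between lines without the ligand, the largest difference was in Col12a1, a fibril-associated chain, which was higher in libraries labelled Esrrb, while the fibrillar chain Col11a1 and the network-forming Col8a1 were lower there. In all 13 members were higher and 4 lower at an adjusted p below 0.05, where 10.2% of all genes were higher and 6.16% lower. The median log2 difference was 0.16 over the members and 0.05 over all genes. Past both limits were Col12a1 and Col11a1, against 1.47% of all genes.

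Col12a1 was 3.22 and 3.03 FPKM in Control and 2.56 and 2.39 in Hh-CM libraries, and 17.2 and 15.3 in Esrrb and 15.7 and 14.9 in Esrrb+Hh-CM libraries. All 4 libraries labelled with Esrrb were above all 4 of the empty-vector line. The difference was 5.06-fold without the ligand (log2 2.34, SE 0.08, adjusted p = 9.81e-05) and 5.99-fold with it (log2 2.58, SE 0.08, adjusted p = 5.84e-05). The ligand lowered Col12a1 slightly in the empty-vector line (log2 -0.33, SE 0.08, adjusted p = 0.0466), a call that was lost on leaving out any 1 of the 8 samples (adjusted p from 0.0522 to 0.183).

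Col11a1, a minor chain of heterotypic fibrils, rose with the ligand and was lower under the receptor label. It was 6.64 and 7.49 FPKM in Control, 13.1 and 14.1 in Hh-CM, 2.91 and 2.88 in Esrrb and 4.37 and 4.57 in Esrrb+Hh-CM libraries. No 2 groups overlapped, and even with the ligand the libraries labelled Esrrb stayed below Control. The difference between lines was -1.26 on the log2 scale without the ligand (SE 0.08, adjusted p = 0.000784) and -1.58 with it (SE 0.08, adjusted p = 0.000341). The ligand raised it by 0.93 in the empty-vector line (SE 0.08, adjusted p = 0.00135) and by 0.61 in the other (SE 0.08, adjusted p = 0.00393), and the difference of these responses did not pass (-0.32, 95% interval -0.61 to -0.04, adjusted p = 0.227). Col8a1, a short chain that forms networks, was 13.0 and 13.5 FPKM in Control, 11.8 and 12.3 in Hh-CM, 8.52 and 8.003 in Esrrb and 6.35 and 6.76 in Esrrb+Hh-CM libraries. Its difference between lines was -0.67 (SE 0.06, adjusted p = 0.00245) without and -0.87 (SE 0.06, adjusted p = 0.00110) with the ligand.

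Of the 7 tested fibrillar chains, 5 were higher in libraries labelled Esrrb than in Control, Col11a1 was lower and Col1a2 did not pass. Over all genes, 10.2% were higher and 6.16% lower in this comparison. With the ligand in both lines 3 were higher, Col11a1 was lower and 3 did not pass. Here 12.4% of all genes were higher and 6.52% lower. The call of Col5a3 as higher (limma adjusted p = 0.0446) was lost with rescaling, the replicate block, only the compared groups and no FPKM limit. Without the ligand the calls of Col1a1 and Col5a1 held in 4 and 5 of the 8 fits that leave out a sample. Col3a1, which forms fibrils in elastic tissues with type I, was 664 and 672 FPKM in Control, 1021 and 989 in Esrrb, 686 and 742 in Hh-CM and 1043 and 1090 in Esrrb+Hh-CM libraries. The libraries of the 2 lines did not overlap, with differences of 0.59 (SE 0.05, adjusted p = 0.00178) without and 0.58 (SE 0.05, adjusted p = 0.00175) with the ligand. Col5a2, which limits the width of type I fibrils together with Col5a1, was 106 and 109 FPKM in Control, 140 and 153 in Hh-CM, 171 and 164 in Esrrb and 210.1 and 222 in Esrrb+Hh-CM libraries. Its difference between lines was 0.64 (SE 0.06, adjusted p = 0.00221) and 0.56 (SE 0.06, adjusted p = 0.00317). Col3a1 and Col5a2 are neighbours on chromosome 1, tail to tail and 24614 bases apart in mm9. Col1a1 was 748 and 763 FPKM in Control and 990.2 and 987 in libraries labelled Esrrb (log2 0.39, SE 0.07, adjusted p = 0.0186). With the ligand its values of 812 and 926 and of 956 and 1026 differed by 0.19 (adjusted p = 0.108).

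Among the processing genes, Bmp1, the proteinase that removes the C-terminal propeptide, was 26.5 and 25.5 FPKM in Control, 37.99 and 39.8 in Esrrb, 25.6 and 27.4 in Hh-CM and 34.5 and 37.7 in Esrrb+Hh-CM libraries. It was higher in the line labelled Esrrb by 0.58 (SE 0.06, adjusted p = 0.00388) and 0.44 (SE 0.06, adjusted p = 0.00844), with no overlap of lines. Plod2 was lower by 0.44 (SE 0.05, adjusted p = 0.00341) and 0.24 (SE 0.05, adjusted p = 0.0213), while Plod1, Plod3 and Serpinh1 were higher under both media. Without the ligand the calls of Plod1 and Serpinh1 held in 2 of the 8 fits that leave out a sample, and that of Plod3 in 4. None of the 4 tested oxidases and none of the 3 prolyl hydroxylases passed without the ligand. With 10.2% of all genes higher and 6.16% lower there, no call among so few genes is near the share of all genes. Sparc was 1099 and 1133 FPKM in Control and 1362 and 1402 in Esrrb libraries (log2 0.31, SE 0.04, adjusted p = 0.00826), and fell with the ligand in that line to 1196 and 1129 (log2 -0.25, SE 0.04, adjusted p = 0.00936).

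With the ligand in both lines, 10 members were higher and 5 lower in libraries labelled Esrrb+Hh-CM than in Hh-CM, where 12.4% of all genes were higher and 6.52% lower. The median log2 difference was 0.12 over the members and 0.05 over all genes, and the same Col12a1 and Col11a1 passed both limits, against 1.97% of all genes. The tests without and with the ligand share no sample. They do share an estimate of the spread and compare the same lines, so the second is not an independent repeat of the first. In both, 12 members passed (38.7%), against 8.55% of all genes, and all 12 kept their sign, as did 96.1% of the 879 genes called in both. Higher in both were Col3a1, Col5a2, Col5a3, Col6a1, Col12a1, Plod1, Plod3, Serpinh1 and Bmp1, and lower in both were Col8a1, Col11a1 and Plod2. Col3a1, Col5a2, Col11a1, Col8a1 and Col12a1 were the 5 called under both media whichever sample was left out. Col4a1, Col4a2 and Col16a1 did not pass under the ligand, with 95% intervals of -0.19 to 0.15, -0.04 to 0.29 and -0.16 to 0.18.

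**Figure D3:**
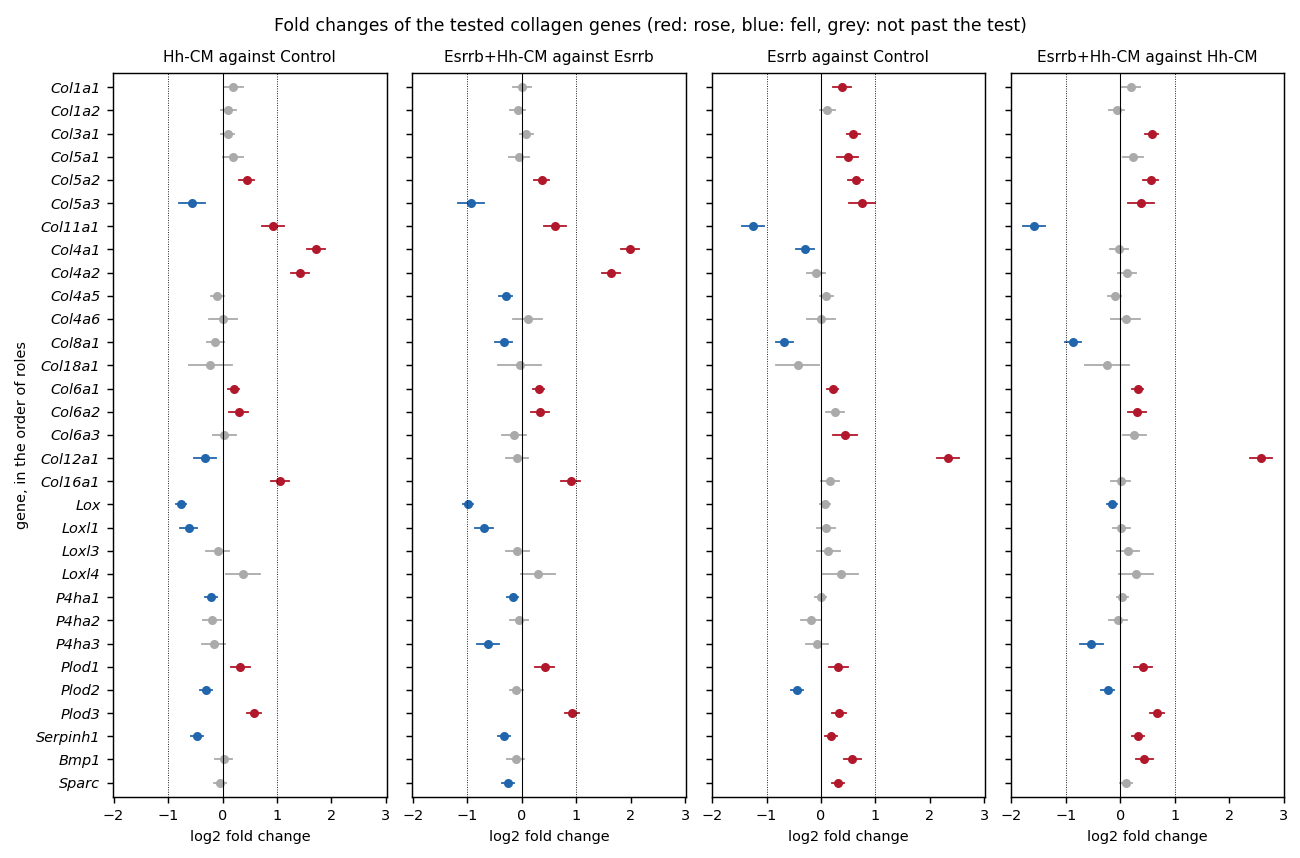
Log2 fold changes (points) with 95% intervals (lines) of the 31 tested members in 4 comparisons, in the order of collagen classes and then processing genes. Red members rose and blue ones fell at an adjusted p below 0.05, and dotted lines mark a change of 1. The left pair shows the ligand in each line, led by Col4a1 and Col4a2, and the right pair the difference of lines, led by Col12a1 and Col11a1.

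Against Control, the cells with both the receptor label and the ligand had 15 members higher and 9 lower, where 23.0% of all genes were higher and 12.0% lower. The median log2 difference was 0.11 over the members and 0.08 over all genes. Past both limits were Col4a1, Col4a2, Col16a1, Col12a1, Col5a2, Plod3 and Col8a1, 7 of 31 against 6.21% of all genes. Plod3 was 2.39-fold higher (log2 1.26, SE 0.05, adjusted p = 4.47e-05). Col5a2 was 2.005-fold higher (log2 1.004, SE 0.06, adjusted p = 0.000127) and Col8a1 2.003-fold lower (log2 -1.002, SE 0.06, adjusted p = 0.000173). These 2 stand at the limit of 1: over the fits that leave out 1 sample the estimates ran from 0.97 to 1.04 for Col5a2 and from -1.05 to -0.96 for Col8a1. Of the type VI chains, which form beaded filaments, Col6a1 was higher by 0.52 (SE 0.04, adjusted p = 0.000433), Col6a2 by 0.60 (SE 0.07, adjusted p = 0.00160) and Col6a3 by 0.29 (SE 0.09, adjusted p = 0.0482). The call of Col6a3 held in 2 of the 8 fits that leave out a sample and was lost with rescaling, the replicate block, no variance trend and no FPKM limit. Of the catalytic subunits of prolyl 4-hydroxylase, P4ha3 was lower (log2 -0.70, SE 0.08, adjusted p = 0.00196) in all 8 such fits. P4ha1 and P4ha2 were lower by 0.18 and 0.24 on the log2 scale (adjusted p = 0.0237 and 0.0390), calls that held in 5 and 3 of the 8. Both were lost with only the compared groups, and that of P4ha2 also with the block, without the trend and without an FPKM limit. Lox was 1.88-fold lower (log2 -0.91, SE 0.04, adjusted p = 4.36e-05).

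**Figure D4:**
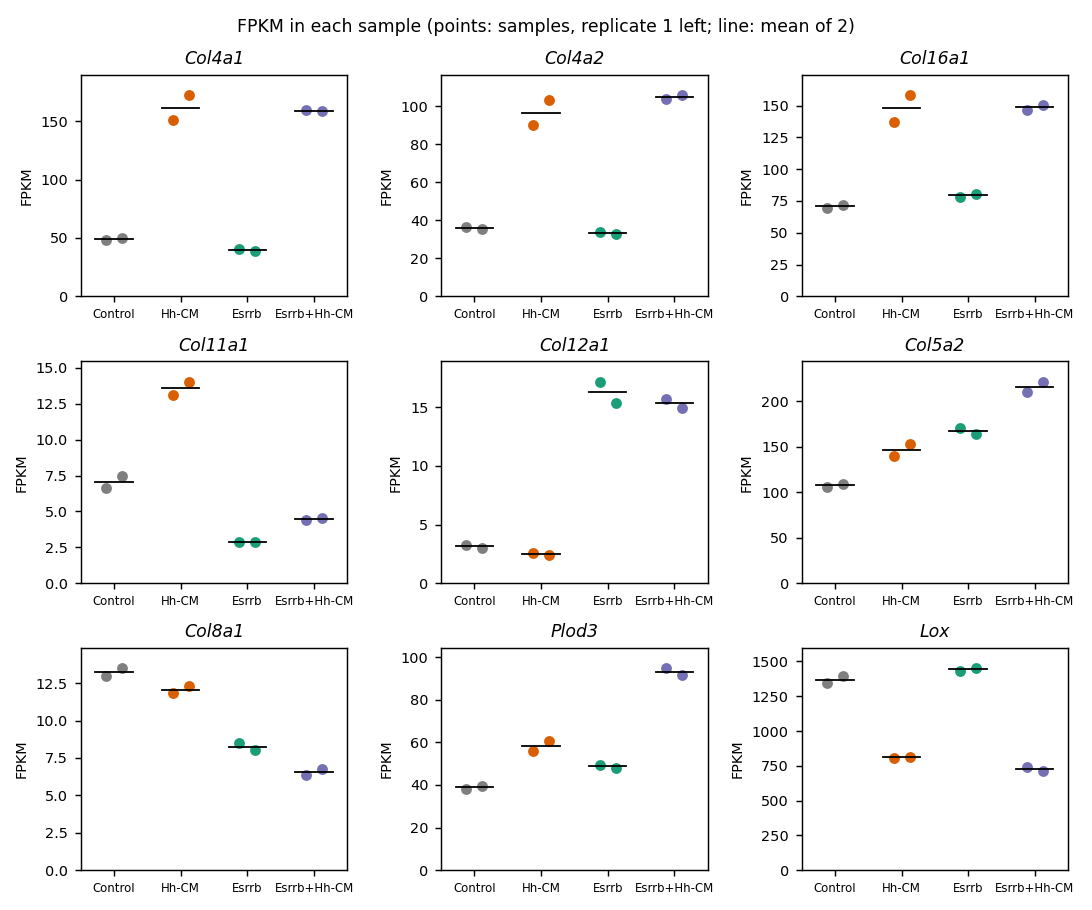
FPKM (linear axis from 0) of 9 members in each sample, with the 2 samples of a group as points and their mean as a line. Col4a1, Col4a2 and Col16a1 divide by ligand, Col12a1 divides by the vector label, Lox is lower in both groups with the ligand, and Col5a2 and Plod3 are highest in Esrrb+Hh-CM.

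Calls with small changes depended on single samples. With each of the 8 samples left out in turn, 9 of the 16 calls for Hh-CM against Control were made in every fit, namely Col5a2, Col11a1, Col4a1, Col4a2, Col16a1, Lox, Loxl1, Plod3 and Serpinh1. The number called fell from 16 to 9 without Control replicate 1 and to 10 without Control replicate 2. For Esrrb against Control, 8 of 17 were made in every fit: Col3a1, Col5a2, Col5a3, Col11a1, Col8a1, Col12a1, Plod2 and Bmp1. The number called was 8 without Control replicate 1, 9 without Control replicate 2 or Esrrb replicate 1 and 10 without Esrrb replicate 2. For Esrrb+Hh-CM against Hh-CM, 8 of 15 were made in every fit, and 9 were called without Hh-CM replicate 1. The counts were 14 of 18 for Esrrb+Hh-CM against Esrrb and 19 of 24 for Esrrb+Hh-CM against Control. The calls of Col6a2 for the ligand, of Col4a1 for Esrrb against Control and of Lox for Esrrb+Hh-CM against Hh-CM were among those lost. Hh-CM replicate 2, the deepest library, was above replicate 1 in 30 of 31 members, by a median of 0.11 on the log2 scale. Its part in the results was not tested beyond leaving it out. Rescaling to a common median also moved the split of all genes from 1053 higher and 633 lower to 752 and 811 for Esrrb against Control, from 2369 and 1235 to 1709 and 1780 for Esrrb+Hh-CM against Control, from 1277 and 671 to 985 and 926 for Esrrb+Hh-CM against Hh-CM, and from 1429 and 978 to 1207 and 1203 for Esrrb+Hh-CM against Esrrb. The split of the members was then 12 and 4, 14 and 11, 9 and 5, and 9 and 9, and no member called in both took the opposite sign.

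Collagen genes outside the 38 were few in these cells. Of 22 further chains, all with a row in every sample, 3 were tested. Col27a1, a fibrillar chain, was 6.16 and 5.77 FPKM in Control, 3.58 and 3.81 in Hh-CM, 8.61 and 8.19 in Esrrb and 3.80 and 4.39 in Esrrb+Hh-CM libraries. It fell with the ligand in both lines (log2 -0.68, adjusted p = 0.00646, and -1.02, adjusted p = 0.000949). Col28a1 was 1.86 and 1.75 FPKM in Control, 2.19 and 2.28 in Hh-CM, 1.79 and 1.69 in Esrrb and 2.86 and 3.22 in Esrrb+Hh-CM libraries, and rose with the ligand in the line labelled Esrrb (log2 0.77, adjusted p = 0.00531) but did not pass in the other (log2 0.29, adjusted p = 0.138). Col20a1 varied within groups, with 29.5 and 2.15 FPKM in the Control libraries, 3.12 and a listed 0 in Hh-CM, 6.004 and 3.24 in Esrrb and 37.02 and 36.4 in Esrrb+Hh-CM, and passed no test. The list of 20 other folding, modification, transport and trimming genes had 14 tested members. With the ligand Adamts2, Adamts14, Creb3l1 and Ctage5 fell in each line at an adjusted p below 0.05 and the other 10 did not pass, against 7.53% and 9.51% of all genes that fell. The median log2 changes were 0.07 and -0.01, against 0.04 in each line over all genes. In libraries labelled Esrrb 7 were higher than in Control and 7 did not pass, against 10.2% of all genes higher, with a median of 0.32 against 0.05 over all genes. Col27a1, Adamts14 and Itga11 are named because they passed both limits in a comparison, and the other genes of these lists were named after their values were seen. The procollagen N-proteinase Adamts14 was 7.95 and 8.04 FPKM in Control, 2.87 and 3.84 in Hh-CM, 14.3 and 12.3 in Esrrb and 4.31 and 3.93 in Esrrb+Hh-CM libraries, so the ligand divided its samples without overlap (log2 -1.24, adjusted p = 0.00396, and -1.67, adjusted p = 0.000884). Adamts2, of the same family, fell by 0.34 (adjusted p = 0.00551) and 0.58 (adjusted p = 0.000563). Of 8 collagen receptors 5 were tested, and Itga11 and the receptor tyrosine kinase Ddr1 fell with the ligand in each line. Ddr2, its relative, passed the test as higher with the ligand in the line labelled Esrrb (log2 0.20, adjusted p = 0.0475). Itga11, an integrin chain for fibrillar collagen, was 8.70 and 8.28 FPKM in Control, 4.87 and 4.71 in Hh-CM, 11.8 and 11.2 in Esrrb and 4.94 and 4.82 in Esrrb+Hh-CM libraries (changes of log2 -0.81, adjusted p = 0.000776, and -1.22, adjusted p = 0.000113).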

How the data were processed

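RNA-Seq values of 8 samples in 4 groups of 2 were used, with groups and replicate numbers from the sample labels. The deposited files hold FPKM, which the authors made with FASTX-Toolkit, Bowtie2, TopHat2 (mm9) and reference-guided Cufflinks, each sample on its own (the paper writes RPKM). They hold no read counts, so relative depth was estimated from the smallest steps between low FPKM of the same genes. Cufflinks names differ between samples, so rows were joined by locus to mm9 genes (GENCODE).

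Group means were fitted with limma 3.58.1 (R 4.3.3) on log2(FPKM + 0.1) with a variance trend over 10284 genes (2 or more libraries at or above 1 FPKM), with Benjamini-Hochberg adjustment over all of them. The pseudocount understates changes of low genes. Limits were an adjusted p below 0.05 and, for the second count, a log2 change of at least 1. The interaction was the response to the ligand in the line labelled Esrrb minus that in the empty-vector line. The fit was tested on simulated data. Python 3.11.15 with pandas 2.3.3 and numpy 2.4.6 did the rest.

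All members could be named. Values were given for those past both limits, the 4 of highest mean FPKM and others that were chosen after their values were seen. The members and the other lists were chosen with earlier results of these data known. Alternatives were other pseudocounts (1 and 0.001), FPKM limits, rescaling, no variance trend, summed rows, an overlap of at least 0.8, only the compared groups, the replicate block, a limit of 0.01 on the adjusted p, and each sample left out in turn. Protein sequences were not used here.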

Additional observations from a re-analysis of the deposited data

How the results depend on the processing

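The counts of members past both limits stayed within 1.5 times of the values given. None of the 90 member changes called at an adjusted p below 0.05 took the other sign in any of the 18 other fits. The 4 changes of Serpinh1 had 17 other fits, because its row fell below an overlap of 0.8 in at least 1 library. Counts at an adjusted p below 0.05 moved further in these cases. With a limit of 0.01, 10 members (16 at 0.05) were called for Hh-CM against Control, 9 (17) for Esrrb against Control and 9 (15) for Esrrb+Hh-CM against Hh-CM. Without an FPKM limit, 10 were called for Esrrb against Control. With only the compared groups in the fit, 8 were called for Esrrb+Hh-CM against Hh-CM. With 1 sample left out, counts ran from 9 to 14 for Hh-CM against Control, 8 to 16 for Esrrb against Control, 20 to 24 for Esrrb+Hh-CM against Control (24), 9 to 13 for Esrrb+Hh-CM against Hh-CM and 15 to 17 for Esrrb+Hh-CM against Esrrb (18). They were 0 throughout for the interaction. A group left with 1 sample is assumed to vary like the others.

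Same-numbered samples did not deviate together (mean correlation 0.01, from -0.06 to 0.06), so the numbers are not taken as pairs. With the replicate block, 16, 15, 22, 13 and 17 members were called in the comparisons Hh-CM, Esrrb and Esrrb+Hh-CM against Control, Esrrb+Hh-CM against Hh-CM and Esrrb+Hh-CM against Esrrb, and 0 for the interaction. Over all genes the interaction count went from 139 to 55 with the block, 84 without a variance trend and 35 at 0.01.

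All-gene counts also moved. With a pseudocount of 1, genes past both limits went from 284 to 179 (Hh-CM against Control), 151 to 88 (Esrrb against Control) and 203 to 125 (Esrrb+Hh-CM against Hh-CM), and with all 8 samples required to reach 1 FPKM to 185, 70 and 109. At 0.01 the genes called were 829 of 1854, 535 of 1686, 1966 of 3604, 649 of 1948 and 1262 of 2407 in the order above, and 135 past both limits for Esrrb+Hh-CM against Hh-CM. With only the compared groups they were 957, 832 and 1512 for Esrrb against Control, Esrrb+Hh-CM against Hh-CM and Esrrb+Hh-CM against Esrrb. With 1 sample left out the genes called ran from 989 to 1853, 659 to 1709, 2400 to 3382, 715 to 1643 and 1599 to 2087 in the order above, and from 64 to 168 for the interaction. The causes were not tested. The paper gives an approximate number of reads for each sample, but the deposited files hold no counts, so no counting error is given for any level.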
